A study of Mus musculus with 16 samples.

Results

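The genes described here are those of the unfolded protein response, the program by which cells answer misfolded protein in the endoplasmic reticulum (ER). They are 34 genes listed by symbol, and all 34 were found among the 55404 genes of a whole brain RNA-seq table. The study compared homozygous Tecpr2 ki/ki mice, which carry the frameshift L1152fs knocked into Tecpr2 by CRISPR/Cas9 editing of C57BL/6J zygotes, with wt/wt mice. Each genotype had 8 untreated mice of 5 months, described as males, and RNA of the whole brain was sequenced as stranded total RNA libraries after removal of ribosomal RNA. The mutation is present in every cell type of the animal. In brain sections of ki/ki mice of this age, the paper reported swollen axons in the medulla and nowhere else. It also reported fewer CTIP2-positive neurons and milder glial changes in the cortex, and more of the ER marker REEP5 in the medulla. By electron microscopy it described enlarged ER in neuronal processes of the medulla. RNA of the whole brain mixes neurons, glia and vessels of all regions. A change confined to the medulla would be diluted in it and was not tested. In such bulk samples, fewer cells of a type and less RNA per cell cannot be told apart. TECPR2 is known as a partner of ATG8 proteins and of the COPII machinery at ER exit sites, and the ER stress genes were set beside this background.

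Sensor proteins in the ER membrane start the response. IRE1, encoded by Ern1, splices the messenger RNA of Xbp1 and so yields an active transcription factor that induces genes of ER-associated degradation (ERAD), the pathway that removes misfolded proteins to the proteasome. PERK, encoded by Eif2ak3, phosphorylates eIF2 and thereby slows translation in general while the translation of Atf4 increases. ATF4 then induces amino acid synthesis and transport genes and, with Ddit3 (CHOP), genes such as Trib3 and Chac1. ATF6 travels to the Golgi, is cut there, and its released fragment induces chaperones of the ER lumen, of which Hspa5 (BiP) is the most used reporter. In brain, neurons and secretory cells depend on these chaperones for receptors, channels and secreted proteins. Splicing, cleavage and phosphorylation are not visible in values per gene, so the data bear on the RNA level of the sensors and of their targets.

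The targets were described in 4 groups by role. ER chaperones and folding enzymes made up 13 genes, ERAD factors and co-chaperones 8, the sensors with Xbp1 4, and the PERK and ATF4 branch 9. Many chaperone genes share a promoter sequence, the ER stress response element (ERSE), which is the site CCAAT followed after 9 free bases by CCACG and is known to be bound by NF-Y and ATF6. The promoters below are those of Hspa5 and of the members whose values followed it most closely between mice, as far as the promoter table held them. They show the 250 bases before the start site from RefSeq in build GRCm38.p6, all on the plus strand, with the ERSE in capitals. They lie at chr2:34771840-34772089 for Hspa5, chr14:118937682-118937931 for Dnajc3, chr2:121413652-121413901 for Pdia3 and chr12:17266339-17266588 for Pdia6.
Hspa5: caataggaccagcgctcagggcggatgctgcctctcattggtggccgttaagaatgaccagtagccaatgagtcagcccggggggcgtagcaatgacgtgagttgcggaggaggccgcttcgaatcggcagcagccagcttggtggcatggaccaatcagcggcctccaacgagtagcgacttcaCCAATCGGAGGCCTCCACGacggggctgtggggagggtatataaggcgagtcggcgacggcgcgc
Dnajc3: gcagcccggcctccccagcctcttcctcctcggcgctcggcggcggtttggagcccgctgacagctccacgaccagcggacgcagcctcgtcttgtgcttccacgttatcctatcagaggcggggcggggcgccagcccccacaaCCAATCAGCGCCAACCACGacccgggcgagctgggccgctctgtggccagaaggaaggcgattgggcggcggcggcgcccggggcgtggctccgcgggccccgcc
Pdia3: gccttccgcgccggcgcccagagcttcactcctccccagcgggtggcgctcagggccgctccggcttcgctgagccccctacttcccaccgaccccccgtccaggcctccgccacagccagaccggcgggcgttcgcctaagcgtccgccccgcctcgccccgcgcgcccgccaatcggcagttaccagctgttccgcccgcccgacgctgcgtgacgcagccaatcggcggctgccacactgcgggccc
Pdia6: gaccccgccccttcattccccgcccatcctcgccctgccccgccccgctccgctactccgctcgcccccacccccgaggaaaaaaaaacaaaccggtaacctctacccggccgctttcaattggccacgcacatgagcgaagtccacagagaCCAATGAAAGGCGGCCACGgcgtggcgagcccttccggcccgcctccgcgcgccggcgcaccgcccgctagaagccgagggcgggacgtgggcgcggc

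The ERSE of Hspa5 runs from base -65 to -47, counted from the start site at 0, that of Pdia6 from -98 to -80 and that of Dnajc3 from -105 to -87. Pdia3 held no full match but a copy at -29 to -11 that differs at 1 of the 10 fixed bases. A promoter, taken as 250 bases before to 50 after the start, was given for 30 of the 34 members, and Manf, Hyou1, Derl1 and Atf6 had none. Searched on both strands, the ERSE was found in 9 of the 30, against 0.119% of all 32851 promoters. The 9 were the chaperone genes Hspa5, Hsp90b1, Calr, Canx, Pdia6 and Creld2 and the ERAD genes Dnajc3, Syvn1 and Derl3. Hsp90b1 held a copy on each strand, at -212 to -194 and at -107 to -89.

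A shorter form, ERSE-II (ATTGG, 1 free base, CCACG), was present in Dnajb11 and Herpud1 alone among the members and in 0.0365% of all promoters. The C/EBP-ATF response element (TGATG, 1 free base, AA), to which ATF4 with C/EBP partners is known to bind, was found in 5 member promoters and 3.97% of all promoters. Of these 5, Asns, Atf3, Chac1 and Trib3 belong to the PERK and ATF4 branch and Herpud1 to ERAD. The UPRE, known as an XBP1 site and searched as TGACGTGG alone, was in no member promoter and in 0.676% of all. The printed Hspa5 promoter holds TGACGTGA, which differs at the last base and was not counted. With 1 differing base allowed, ERSE copies were present in 14 of 30 member promoters and 1.50% of all. These matches are letters in a window and not measured binding.

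In the 16 libraries, normalised values summed to between 11964284 and 12252324 per mouse, and because they were normalised by the authors these totals do not give the sequencing depth. Tecpr2 checked the labels: it lay between 274 and 320 in ki/ki and between 928 and 1002 in wt/wt mice, a log2 difference of -1.68. All marker lists of brain cell types were expressed. Of the 5 pituitary markers, Prl and Gh were at 0 in every mouse. The summed pituitary list had 45 to 59 in ki/ki and 44 to 53 in wt/wt. Of 12 marker lists, the summed astrocyte and the summed microglia markers had an adjusted p under 0.1 between the genotypes. Astrocyte markers, which include Gfap, had 56783 to 59109 in ki/ki and 53180 to 56694 in wt/wt (exact permutation p = 0.000155, the smallest possible, adjusted p = 0.00186 over the 12 lists). Microglia markers had 1474 to 1623 in ki/ki and 1414 to 1570 in wt/wt (exact permutation p = 0.0157, adjusted p = 0.0942). The remaining lists had adjusted p-values from 0.114 (choroid plexus) to 0.958 by the same exact test.

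Levels of the members spanned a wide range when the mean value over 16 mice was divided by exon length. Calr, a lectin chaperone that also buffers ER calcium, stood highest at 954 per kb, followed by the membrane lectin chaperone Canx at 864 per kb. The ER HSP90 Hsp90b1 had 578 per kb, Hspa5 517 per kb and the disulfide isomerase Pdia3 433 per kb. Atf4 was the most abundant member of its branch with 335 per kb, and Asns, asparagine synthetase, had 252 per kb. The sensors were lower, with 117 per kb for Atf6, 49.3 per kb for Eif2ak3 and 24.7 per kb for Ern1, while Xbp1 had 198 per kb. At the low end stood Derl3 with 11.4 per kb, Trib3 with 3.88 per kb and Atf3 with 2.87 per kb. Chaperone genes were found over much of this range, down to 63.5 per kb for Sdf2l1 and 58.8 per kb for Creld2. Trib3 and Atf3 had values per mouse of 3 to 14 and 1 to 11.

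The first comparison asked whether the unfolded protein response differed between Tecpr2 ki/ki and wt/wt brains. No member passed the test at an adjusted p under 0.1, and none had an unadjusted p under 0.05. All 34 passed the filter on low values, and the values are those of the whole brain and not of single regions. Differences are given on the log2(value + 1) scale, as ki/ki minus wt/wt, which understates those of low genes. Over the 23244 genes tested with limma, 0.133% had an adjusted p under 0.1 and 6.08% an unadjusted p under 0.05. Of the members, 14 were higher and 20 lower in ki/ki, and their median log2 difference was -0.0075, against -0.00098 over all genes tested. In 28 of 34 members the 95% interval lay within 0.2 log2 units of no difference, which is about 14.9% upwards, and in 10 it lay within 0.1. Of the 13765 genes tested with a mean value of at least 50, 3967 had an interval within 0.1. Intervals within 0.2 were found for 43.0% of all genes tested and for 72.6% of those with a mean value of at least 50, against 28 of the 31 members with such a mean. The ki/ki and wt/wt values overlapped in all 34 members, and they did not overlap in 0.086% of all genes tested. The 6 with wider intervals were Atf3, Trib3, Derl3, Sdf2l1, Creld2 and Ppp1r15a, whose mean values were at most 134 in either genotype, and for them the intervals leave room for larger differences.

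**Figure D1:**
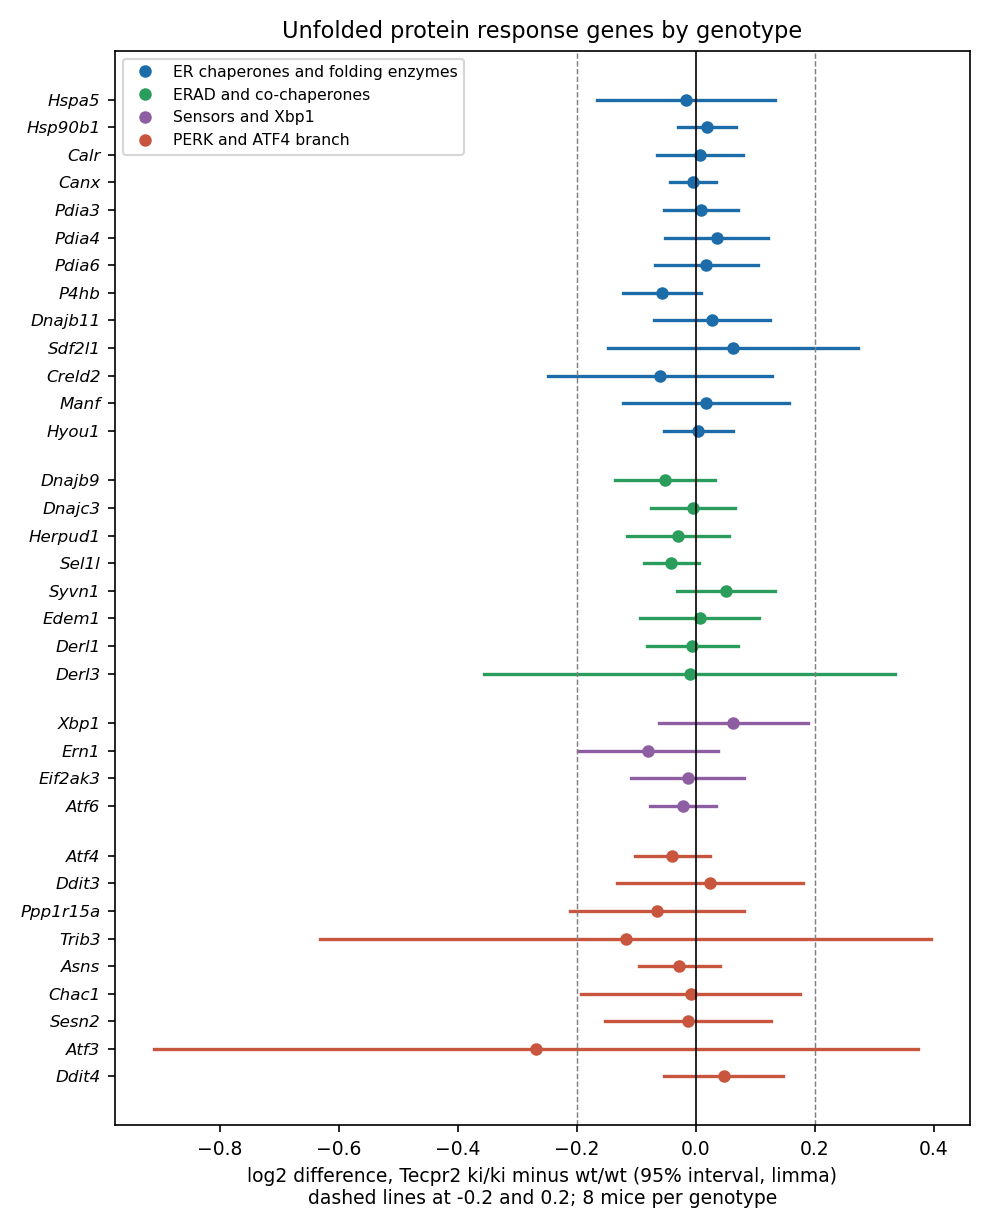
Log2 difference between Tecpr2 ki/ki and wt/wt for the 34 genes (points) with its 95% interval from limma (lines), n = 8 mice per genotype, coloured by role. Every interval includes 0, and 28 of 34 lie between the dashed lines at -0.2 and 0.2.

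Among the 13 ER chaperones and folding enzymes, 9 were higher and 4 lower in ki/ki, with a median log2 difference of 0.0089 and none past the test. Hspa5, the HSP70 of the ER lumen, ranged from 1857 to 2532 (median 2192) in ki/ki and from 2035 to 2590 (median 2127) in wt/wt. The highest values of each genotype lay close together, in wt/wt mouse 1 (2590) and ki/ki mouse 8 (2532). Its log2 difference was -0.017 with a 95% interval from -0.17 to 0.13 (limma, adjusted p = 0.987). P4hb, a protein disulfide isomerase, ranged from 700 to 798 (median 745) in ki/ki and from 727 to 820 (median 767) in wt/wt. In 1 of 8 ki/ki mice it lay above the wt/wt mean, and the log2 difference was -0.057 (SE 0.033, limma, adjusted p = 0.877, exact permutation p = 0.0785). Pdia4, another disulfide isomerase, ranged from 427 to 530 (median 468) in ki/ki and from 412 to 514 (median 457) in wt/wt, a log2 difference of 0.035 (SE 0.043).

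The remaining chaperone genes lay between -0.060 for Creld2, an ER protein known to be induced by ER stress, and 0.062 for Sdf2l1, a partner of the ER HSP70 cycle. The narrowest interval was that of Canx, from -0.044 to 0.033 around -0.0052. Calr differed by 0.0071, Hsp90b1 by 0.019, Pdia3 by 0.0089 and Pdia6 by 0.018. Hyou1, the nucleotide exchange factor of BiP, differed by 0.0037, its DnaJ partner Dnajb11 by 0.027, and the secreted ER stress protein Manf by 0.017. Each of these intervals included 0.

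Of the 8 ERAD factors and co-chaperones, 2 were higher and 6 lower, with a median of -0.0081 and none past the test. Sel1l, the scaffold of the HRD1 ubiquitin ligase, ranged from 2129 to 2341 (median 2245) in ki/ki and from 2152 to 2414 (median 2309) in wt/wt. It had the smallest p of all members, with a log2 difference of -0.041 (95% interval -0.087 to 0.0047, limma, unadjusted p = 0.0774, adjusted p = 0.875). Without wt/wt mouse 2 its unadjusted p was 0.0207. Dnajb9, a co-chaperone that is known as an XBP1 target, ranged from 387 to 431 (median 422) in ki/ki and from 403 to 484 (median 416) in wt/wt. The wt/wt group held 3 mice above every ki/ki mouse (468, 484 and 460), and the log2 difference was -0.052 (SE 0.042). Syvn1, the ligase HRD1 itself, differed by 0.050, and Herpud1, a membrane factor of the same complex, by -0.030. Dnajc3, the PERK inhibitor P58IPK, differed by -0.0043, the mannosidase-like Edem1 by 0.0062, and the derlins Derl1 and Derl3 by -0.0061 and -0.010. For Derl3 the interval from -0.36 to 0.34 leaves wide room, at mean values of 22.0 and 23.4.

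The sensors and Xbp1 did not pass the test either, with 1 of 4 higher in ki/ki and a median of -0.018. Xbp1 ranged from 579 to 806 (median 640) in ki/ki and from 579 to 689 (median 627) in wt/wt. Its 2 highest values came from ki/ki mice 8 (806) and 1 (742), while the lowest was 579 in both genotypes. The log2 difference was 0.063 (95% interval -0.062 to 0.19, limma, adjusted p = 0.931). Ern1 ranged from 182 to 230 (median 192) in ki/ki and from 190 to 250 (median 203) in wt/wt, with the highest value in wt/wt mouse 7, and differed by -0.081 (SE 0.059, limma, adjusted p = 0.902). Eif2ak3 differed by -0.014 and Atf6 by -0.022, and all 4 intervals lay within 0.2 of no difference.

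In the PERK and ATF4 branch, 2 of 9 genes were higher and 7 lower in ki/ki, with a median of -0.028 and none past the test. Atf4 ranged from 734 to 824 (median 781) in ki/ki and from 751 to 845 (median 809) in wt/wt, a log2 difference of -0.039 (95% interval -0.10 to 0.024, limma, adjusted p = 0.906). In 2 of 8 ki/ki mice it lay above the wt/wt mean. Ddit3, which encodes the pro-apoptotic factor CHOP, ranged from 98 to 130 (median 110) in ki/ki and from 91 to 128 (median 111) in wt/wt. The groups lay on top of each other, with a log2 difference of 0.023 (95% interval -0.13 to 0.18). Ddit4, an inhibitor of mTORC1, ranged from 279 to 360 (median 311) in ki/ki and from 272 to 336 (median 307) in wt/wt, a log2 difference of 0.047 (SE 0.050).

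The other genes of this branch did not pass the test either. Asns had 681 ± 22.2 in ki/ki and 695 ± 36.9 in wt/wt (SD, n = 8 each), a log2 difference of -0.028. Chac1, which degrades glutathione, differed by -0.0090, and Sesn2, a leucine sensor that restrains mTORC1, by -0.014. Ppp1r15a (GADD34), which returns eIF2 to its unphosphorylated state, had 128 ± 12.5 against 134 ± 14.1, a log2 difference of -0.065. For the pseudokinase gene Trib3 and the transcription factor gene Atf3 the intervals were wide, from -0.63 to 0.40 and from -0.91 to 0.37, at mean values of 8.13 against 8.38 and 5.50 against 6.88.

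**Figure D2:**
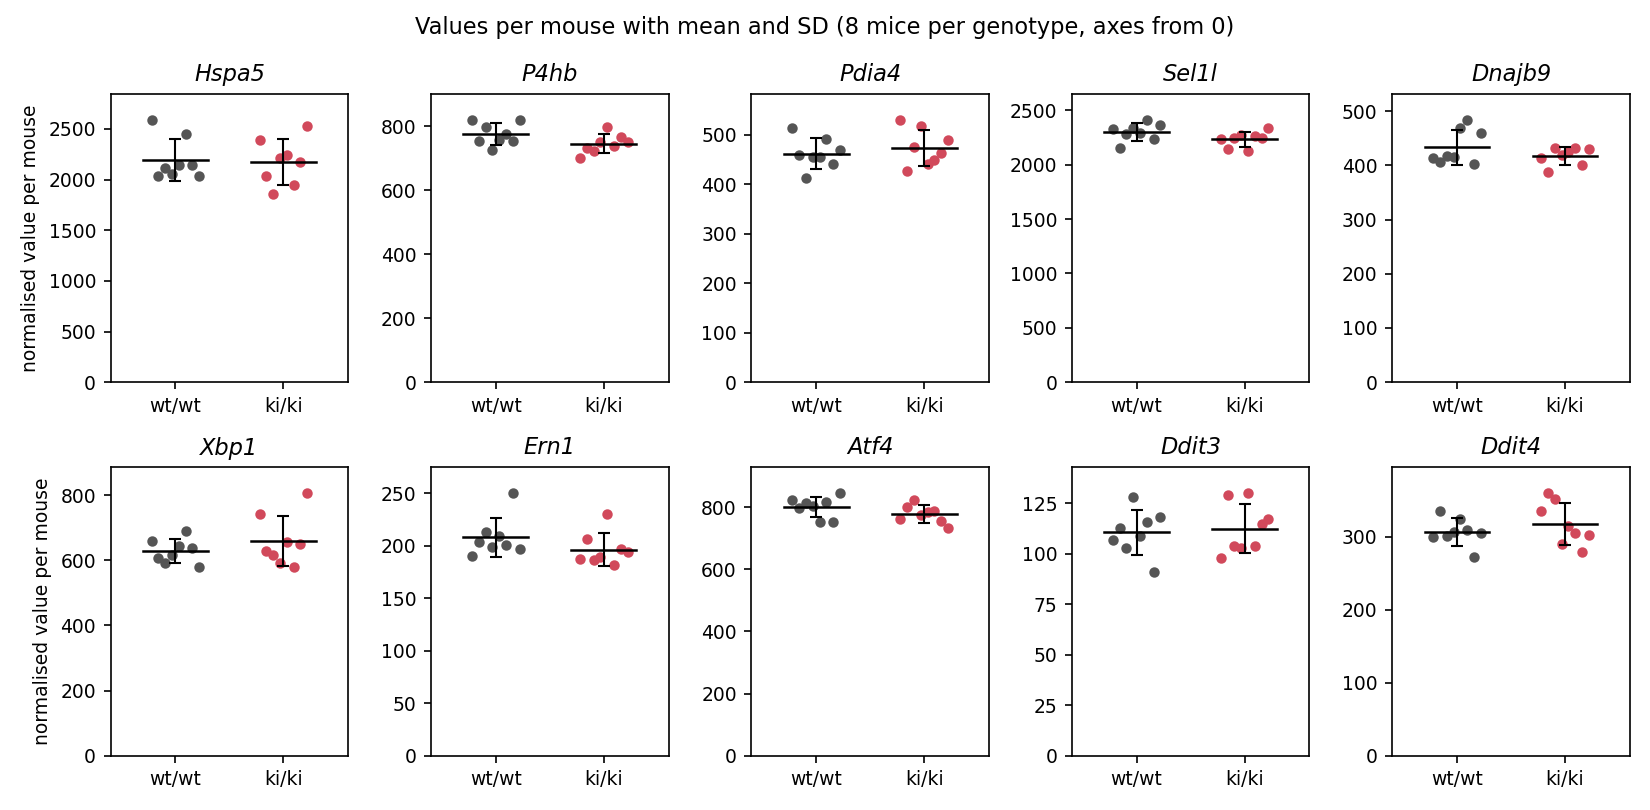
Normalised value per mouse (points) of 10 genes in wt/wt (grey) and Tecpr2 ki/ki (red), with the mean (horizontal line) and SD (bars), n = 8 per genotype; each vertical axis starts at 0. The genotypes overlap in every panel. For Hspa5, 4 mice lie at 2389 to 2590 and the next at 2242, and for Xbp1 the highest value is 806 in ki/ki mouse 8.

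Other genes of the pathway were taken from a list of 88, of which 86 were tested and Gdf15 and Fgf21 were too low. None had an adjusted p under 0.1, 47 were higher and 39 lower in ki/ki, and 3 had an unadjusted p under 0.05 against 6.08% of all genes. The median log2 difference was 0.0025. Slc7a5, the light chain of the LAT1 transporter for large neutral amino acids and a known ATF4 target, had the smallest p. It ranged from 577 to 674 (median 611) in ki/ki and from 548 to 594 (median 581) in wt/wt, so that 6 of 8 ki/ki mice exceeded every wt/wt mouse. The log2 difference was 0.10 (SE 0.035, limma, unadjusted p = 0.00608, adjusted p = 0.541) and thus failed the correction. The others were Os9, a lectin of ERAD (0.07, unadjusted p = 0.0157), and Eif2b5, a subunit of the exchange factor of eIF2 (-0.10, unadjusted p = 0.0458). By subgroup, the 19 ER folding genes had a median of 0.0088, the 12 ERAD genes 0.0020, the 12 translocon and signal sequence genes -0.015, and the 27 targets of ATF4 and CHOP 0.026.

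While the genotypes did not separate, the mice of a genotype differed from each other in some of these genes. The spread was measured as the SD of log2 values after the mean of each genotype had been removed, and compared with the median SD of the genes in the same of 10 equal bins of mean expression. Hspa5 had an SD of 0.14, which was 2.98 times the median of its bin, and its highest mouse had 1.39 times the value of its lowest. Xbp1 followed with 1.99 times (SD 0.13) and Manf with 1.91 times (SD 0.16). Pdia3, Pdia6, Calr and Hyou1 lay between 1.51 and 1.66 times. These 7 were the members whose SD fell in the widest 10% of their bin, and 6 of them are chaperone genes. Atf4 had 0.861 times, Atf6 0.694 times and Chac1 0.688 times the median SD, and Canx, the most abundant gene of the list by value, had 0.907 times.

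**Figure D3:**
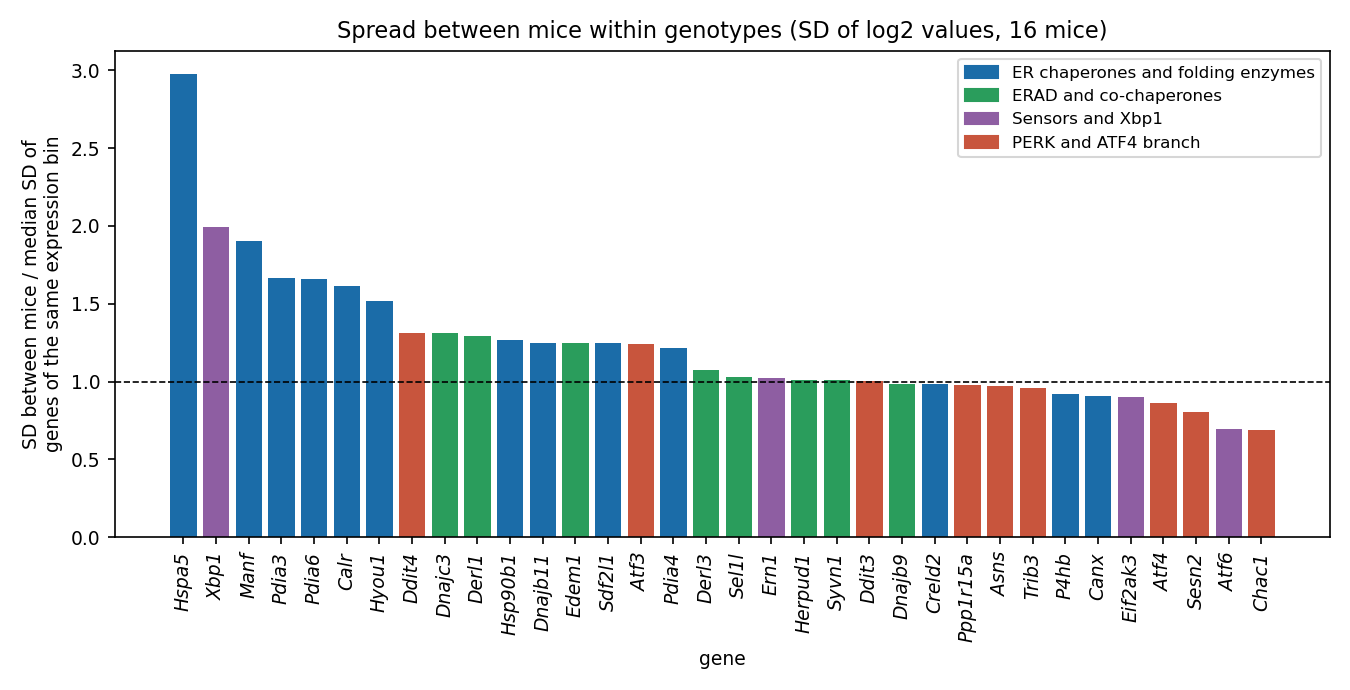
SD between mice of the log2 values within genotypes, divided by the median SD of tested genes in the same of 10 bins of mean expression, for the 34 genes over 16 mice, coloured by role; the dashed line marks a ratio of 1. Hspa5 stands at 2.98, Xbp1 at 1.99 and Manf at 1.91, while Atf4, Atf6 and Chac1 are below 1.

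The second comparison asked which members moved together between mice, with Hspa5 as the reference of the chaperone arm. Pearson's r was computed over 16 mice after removal of the genotype means, for the 30 other members with a mean value of at least 50. Of these, 10 reached an r of at least 0.6, against 1.72% of 13764 genes. By group they were 8 of 12 chaperone genes, 1 of 7 ERAD genes (Dnajc3), 1 of 4 genes of the sensor group (Xbp1) and 0 of 7 genes of the PERK and ATF4 branch. With adjustment over all 13764 genes, 0% had a positive r at an adjusted p under 0.05, so that no single r passed the test.

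Manf had the highest r of all genes, 0.89 (permutation p = 4e-05, adjusted p = 0.184; rho 0.90, permutation p = 3e-05). It had an r of 0.89 within ki/ki and of 0.90 within wt/wt, and 0.91 without the 2 mice farthest from the median of Hspa5 (ki/ki mouse 8 and wt/wt mouse 1). Dnajc3 ranked 3 (r 0.85, permutation p = 0.00011, adjusted p = 0.199; rho 0.77, p = 0.00115) and Pdia3 ranked 4 (r 0.84, rho 0.86, adjusted p = 0.199). Pdia6 had an r of 0.81 (rho 0.82, adjusted p = 0.254) and Xbp1 of 0.79 (rho 0.77, adjusted p = 0.248). The r of the others lay between 0.61 for Creld2 and 0.74 for Calr, with Dnajb11 and Hsp90b1 at 0.73 and Hyou1 at 0.67. Without the 2 farthest mice the 10 lay between 0.37 for Creld2 and 0.91 for Manf. All 12 chaperone genes had a positive r in either genotype taken alone. P4hb and Canx stood apart at low r, with 0.28 and 0.14.

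Of the 13764 other genes with a mean value of at least 50, the 10 most like Hspa5 over the 16 mice were Manf (0.89), Hook3 (0.87), Dnajc3 (0.85), Pdia3 (0.84), Gpr107 (0.83), Fubp1 (0.83), Irs2 (0.82), Kdm5c (0.82), Pigc (0.82) and Tmem41b (0.81). Of these, 3 were members of the list and the others were not.

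**Figure D4:**
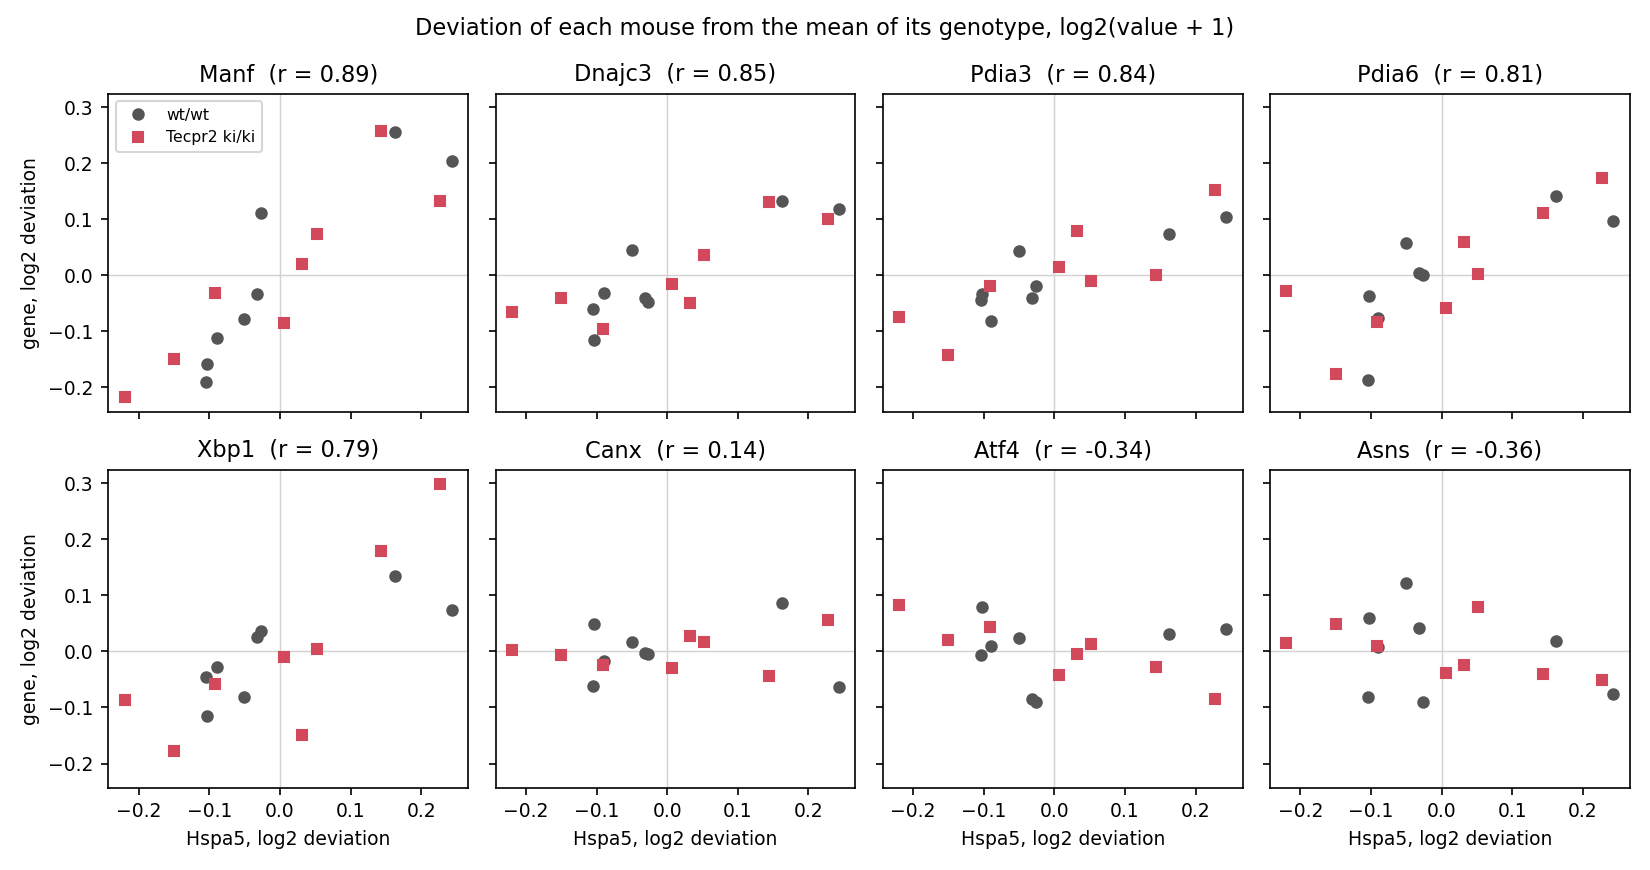
Deviation of each mouse from the mean of its genotype in log2(value + 1), for Hspa5 (horizontal) against 8 other genes (vertical), with wt/wt as grey circles and Tecpr2 ki/ki as red squares (8 mice each). Manf, Dnajc3, Pdia3, Pdia6 and Xbp1 rise with Hspa5 in both genotypes (r from 0.79 to 0.89), whereas Canx (0.14), Atf4 (-0.34) and Asns (-0.36) do not.

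The 4 mice with the highest Hspa5 were ki/ki mice 1 and 8 and wt/wt mice 1 and 6, with values of 2389, 2532, 2590 and 2449, while the next mouse had 2242. The r was therefore also computed over the 12 other mice, an alternative added after the data were seen. Leaving out mice by their Hspa5 value narrows its range and can by itself change an r with Hspa5. These values therefore do not show how much the 4 mice contributed. Over the 12 mice, 4 of 30 members reached an r of at least 0.6, against 3.25% of all genes. Dnajb11 rose from 0.73 to an r of 0.83 and Edem1 from 0.57 to 0.66, while Manf had 0.80 and Pdia3 0.71. Dnajc3 fell to 0.49, Pdia6 to 0.53 and Xbp1 to 0.45, and Creld2 changed sign to -0.14. The labels give no batch that these 4 mice share. The summed cytosolic heat shock genes had an r of 0.52 with Hspa5 (permutation p = 0.0415, adjusted p = 0.498 over 12 marker lists, rho 0.46). The glucocorticoid-induced genes had an r of -0.40 (permutation p = 0.161, adjusted p = 0.756, rho -0.27). For the neuronal activity genes the r was 0.33 (permutation p = 0.247, adjusted p = 0.756, rho 0.41). Without the 2 farthest mice these lists had 0.50, -0.34 and 0.67 in this order. The r of the remaining lists over all mice lay between -0.26 (oligodendrocytes) and 0.23 (pituitary). The part of these lists in the result was not tested.

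In the PERK and ATF4 branch no gene reached an r of 0.6 with Hspa5. The r of its 7 genes with sufficient values ran from -0.36 for Asns to 0.046 for Ppp1r15a, with a median of -0.30, and Ddit3 had -0.0080. If 1 unit stood for 1 read, counting alone would give a spread of 3.56% in Atf4, 3.81% in Asns and 11.8% in Chac1. Their SD between mice was 3.95%, 4.48% and 10.1%, while Hspa5 had 10.2% against 2.14% from counting. Ddit4 had 8.05% against 5.66%. A spread so close to counting lowers the r that can be reached, and its part in the low r was not tested. Atf4 had an r of -0.34 over all mice, of -0.89 within ki/ki and of 0.19 within wt/wt, and the difference between the genotypes was not tested. With Asns as the reference of the ATF4 arm, 0 of 30 members reached an r of at least 0.6, against 2.46% of 13764 genes, and again 0% of the genes had a positive r at an adjusted p under 0.05. Derl1 (0.48), Canx (0.44) and Atf4 (0.43) had the highest r and Pdia4 the lowest (-0.58). The 10 genes most like Asns were Tomm20, Rps4x, Sdha, Mobp, Atxn7l3b, Slc18b1, Rasd2, Ttc33, Idh3a and Atp5a1 with an r between 0.81 and 0.85, and none was a member.

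All pairs of members gave a similar picture. Among the chaperone genes 25 of 78 pairs (32.1%) had an r of at least 0.6, with a median r of 0.52, and between chaperone and ERAD genes 11 of 91 pairs (12.1%). Within the PERK and ATF4 branch 0 of 21 pairs did, with a median r of 0.042, and between chaperone genes and this branch 0 of 91, with a median of -0.096. Most genes of this branch varied between mice by little more than counting would give if 1 unit stood for 1 read. That lowers the r that such pairs can reach, so these counts do not show whether the branch moves together. Among pairs of every 10th gene, 1.25% of 947376 pairs reached this r. Members share the libraries and the pairs share genes, so these are counts and no tests.

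**Figure D5:**
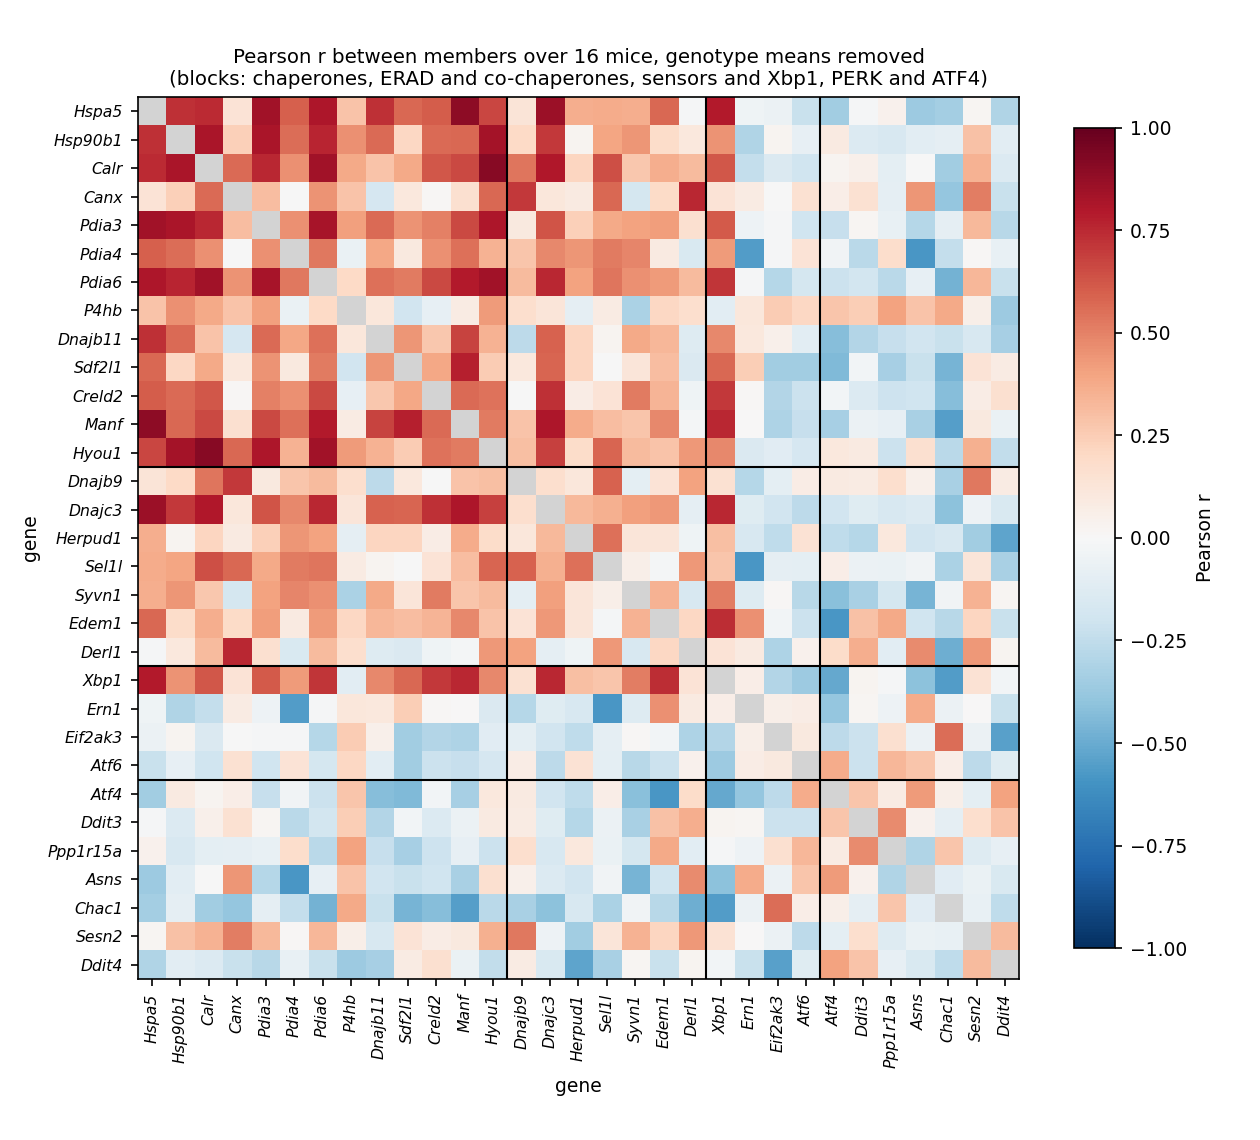
Pearson r between the 31 members with a mean value of at least 50, over 16 mice after removal of genotype means (red positive, blue negative, grey diagonal), with black lines between the role groups. The chaperone block holds 25 of 78 pairs with an r of at least 0.6, joined by Dnajc3 and Xbp1, and the block of the PERK and ATF4 branch holds none.

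The promoter sequences were set beside these values. Among members with a promoter and a sufficient value, the 9 other than Hspa5 with an ERSE or ERSE-II had a median r of 0.73 with Hspa5, and 6 of them reached 0.6. The 17 with neither had a median of 0.046, and 2 of them reached 0.6, Pdia3 and Xbp1. The 9 are all chaperone or ERAD genes, whereas the 17 include 3 of the sensor group and 7 of the PERK and ATF4 branch, so that carriage of the element cannot be told apart from the role groups. The 7 chaperone and ERAD genes with neither element had a median of 0.57. Of them, Pdia3, Pdia4 and Sel1l hold an ERSE copy that differs at 1 fixed base, as does Ddit3 among the 17. Over the 12 mice without the 4 highest in Hspa5, the median was 0.26 for the 9 carriers, of which 1 reached 0.6 (Dnajb11), and 0.47 for these 7 genes. Over all 16 mice, the 3 carriers below 0.6 were Canx, with an ERSE at -145 to -127 and an r of 0.14, Syvn1 with 0.36 and Herpud1 with 0.37. The members were chosen as known targets of the response, so this is a description of the list.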

How the data were processed

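Per the labels and methods, the authors trimmed reads with Trim Galore 0.6.10 and cutadapt 3.4, aligned them to GRCm39 with STAR 2.7.10b, counted them per gene with summarizeOverlaps and tested genes with DESeq2 1.40.2. The deposited value is a score per gene and mouse, a linear normalised value rounded to whole numbers, whose normalisation is not given in the sources used here. The tables of single mice held the same values (16 of 16). Kept were genes with a sum over 16 and a value above 5 in 4 or more mice of either genotype. Differences were tested with limma 3.58.1 in R 4.3.3 (trend and robust options) on log2(value + 1), with Benjamini-Hochberg adjustment over all genes tested and a threshold of 0.1, so fold changes of low genes are understated. Single values were compared by two-sided exact permutation tests over 12870 assignments in Python 3.11.15 (scipy 1.17.1). Correlations used 100000 permutations within genotypes, or all orders within 1 genotype. Their adjustment had been planned over the members and was widened to all genes with a mean of at least 50 after the data were seen. Over the members alone it called 9 for Hspa5 and 0 for Asns, which is no independent evidence because the members were chosen with results known. Nothing states that mice came from separate litters, so p-values measure the spread between these mice.

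The members and lists were chosen with earlier results of these data known. Named with values per mouse were the 2 members of each role group with the smallest unadjusted p, and Hspa5, Xbp1, Atf4 and Ddit3. Named in addition were Tecpr2, other pathway genes with an unadjusted p under 0.01 (Os9 and Eif2b5 were added after their values were seen), and the 10 genes most like Hspa5 and Asns. Promoters had been planned for the 4 members most like either reference. Hspa5 was added, and those of the Asns group were not printed because none of its members reached an r of 0.6. Exon lengths and gene positions came from the GENCODE annotation of GRCm38, an earlier build than GRCm39. In it, 10 members share exon bases with other gene entries, Hsp90b1 the most with 15.7%. Ddit3 shares 10.9%, Manf 9.25% and Eif2ak3 8.05% of their exon bases, and reads can be lost or shared there. Ddit3 had 2 entries under its symbol, and an overlapping entry on the same strand also bears it. The entry with the higher total was used. The steps were tested on simulated data before use. Alternatives were other pseudocounts, filters, scalings and designs and leaving out each mouse.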

Additional observations from a re-analysis of the deposited data

Results flagged for a closer look

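Single mice stood far from the others of their genotype in 2 genes. Ern1 was 250 in wt/wt mouse 7, while the next highest of the 8 wt/wt mice had 213 and the lowest 190. Atf6 was 1015 in ki/ki mouse 8, while the next lowest of the 8 ki/ki mice had 1060 and the highest 1093. In all, 68 groups of 8 mice were examined, of which chance would mark about 5%, or 3.4.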

How the results depend on the processing

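No member had an adjusted p under 0.1 in any of the alternatives run. Over 847 values of members in 25 settings none changed its call, the smallest unadjusted p was 0.0207 (Sel1l without wt/wt mouse 2) and the smallest adjusted p by limma was 0.684. Leaving out 1 mouse at a time gave 0 to 1 members with an unadjusted p under 0.05: Sel1l without wt/wt mouse 2 or ki/ki mouse 8, and P4hb without ki/ki mouse 5 or wt/wt mouse 4. For the other pathway genes it gave 2 to 6. The largest shift of a log2 difference was 0.22, for Atf3 without ki/ki mouse 8. The count over all genes, 31, was 16 without the variance trend and robust option, 20 with no filter on low values and 64 when the first principal component of the residuals was added to the model. With the replicate block it was 46 and the members still had 0. Same-numbered mice had an r of -0.039 to 0.15, and 3 of 8 ki/ki mice correlated best with the wt/wt mouse of their own number. The labels do not state what a replicate number stands for, and whether same-numbered mice share a batch was not tested. Without the 4 mice with the highest Hspa5, chosen after the data were seen and by the reference gene itself, 4 members in place of 10 reached an r of 0.6 with Hspa5, and the r of Creld2 was -0.14. With Asns, 1 member reached it within ki/ki and 2 within wt/wt, against 0 over all mice. Leaving out mice by Hspa5 narrows its range, and the cause of these changes was not tested. Genes with values under about 10, such as Trib3 and Atf3, limit what can be seen.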
